A study of Rattus norvegicus with 16 samples.

Results

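The contrast described here asks whether cross-fostering shifted liver gene expression by a different amount in rats exposed to a contaminant mixture during development than in rats that were not. It was computed from all 16 arrays of the series, chosen by the group in their titles, as the difference of 2 differences: MM minus M, less CC minus C. MM livers came from offspring of dams dosed daily at 1.0 mg/kg with organochlorine pesticides, polychlorinated biphenyls and methyl mercury combined, exposed before and after birth and moved to another exposed dam at birth. M livers came from offspring of dams given the same dose that stayed with their own mothers. CC livers came from offspring of dams given corn oil alone that were moved to another control dam, and C livers from offspring of dams given corn oil alone that stayed with their own mothers. All animals were male Sprague-Dawley rats killed between postnatal days 78 and 86. Each group held 8 rats, and RNA of pairs of rats was pooled so that 4 arrays stood for each group. The labels do not say which pooled rats were littermates, so the p-values measure the spread between pools and may understate the spread between litters. The title and treatment label of the M arrays call them treated while a description calls them a control, and they were taken as exposed.

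Cross-fostering means giving a newborn litter to a foster dam, which changes handling and maternal care as well as the milk. Organochlorines and methyl mercury reach pups through the placenta and through milk. In liver, many such compounds act through the nuclear receptors CAR and PXR, which control cytochrome P450 and conjugation enzymes. Liver is also the site of cholesterol and bile acid synthesis, of acute phase protein secretion and of a sex-specific steroid metabolism that growth hormone maintains.

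Each array compared a liver pool, labelled with Cy5, with a common reference RNA made from 14 rat cell lines, labelled with Cy3, and no dye swap was made. The value of a gene is its log2 ratio of liver over reference, so 1 unit is a 2-fold difference, and a positive interaction means that MM minus M was larger than CC minus C. The slides were confounded with exposure: 1 slide held CC and C, and the other held MM and M. A constant effect of a slide cancels in this contrast, because each fostering difference lies within a slide. An effect of position on the slide may not: MM and C arrays lay at one set of positions, the same on both slides, and M and CC arrays at the other set, alternating along each row and between rows. An effect that adds over rows and columns cancels over both rows but not within 1 row. An effect that follows the alternation and is shared by both slides would have opposite signs in MM minus M and CC minus C, and cannot be told apart from the interaction. Each slide has 2 rows, and each row held 2 fostered and 2 non-fostered arrays, so the contrast could also be taken from the 8 arrays of row 1 and from the 8 arrays of row 2, which share no array. The liver signal was well above background for 35.0% to 41.9% of probes per array, the lowest correlation between any pair of arrays was 0.949, and all 16 hepatocyte markers listed were measured. Whole liver was sampled, so fewer cells of a type and less RNA per cell cannot be told apart for any marker described below.

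No feature passed the test. Of 11089 features tested with limma and slide row as a block, 0 were called higher and 0 were called lower at a Benjamini-Hochberg adjusted p under 0.05 (0% in each direction). The smallest adjusted p was 0.292, for Ednra, and the next was 0.934. At an unadjusted p under 0.05 there were 465 features (4.19%), 256 with a positive interaction (2.31%) and 209 with a negative one (1.88%). With no effect a fraction of 0.05 is expected at that level over both directions together. Each share over both directions in this paragraph was smaller. The fostering differences taken alone gave 404 features (3.64%) for MM minus M and 289 (2.61%) for CC minus C at the same unadjusted level, and limma called 0 in each. The liver channel taken alone, without the reference, gave 462 features (4.17%) at that level and 0 calls, with a smallest adjusted p of 0.914. The reference channel, in which the same RNA was hybridised on every array, gave 321 features (2.89%) and 0 calls.

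Intervals of the interaction were narrow for most features, though they measure the spread between pools and may understate that between litters. The offset of 50 in the background correction compresses ratios of dim features, which can narrow their intervals too. The median standard error of the interaction was 0.14 on the log2 scale, and the 95% interval lay within a 2-fold difference in either direction for 97.0% of features. Only 17 features (0.153%) had an estimate of at least 2-fold. MM and M arrays did not overlap for 120 features (1.08%), and CC and C arrays did not overlap for 98 (0.884%). Both pairs were free of overlap, in opposite directions, for 2 features (0.018%), Ednra and Akr1c1. Both pairs were free of overlap in the same direction for 0 features (0%). Arrays of groups this small can separate by chance, and the shares without overlap were not tested against that. A lack of overlap therefore does not by itself set Ednra or Akr1c1 apart from other features.

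**Figure D1:**
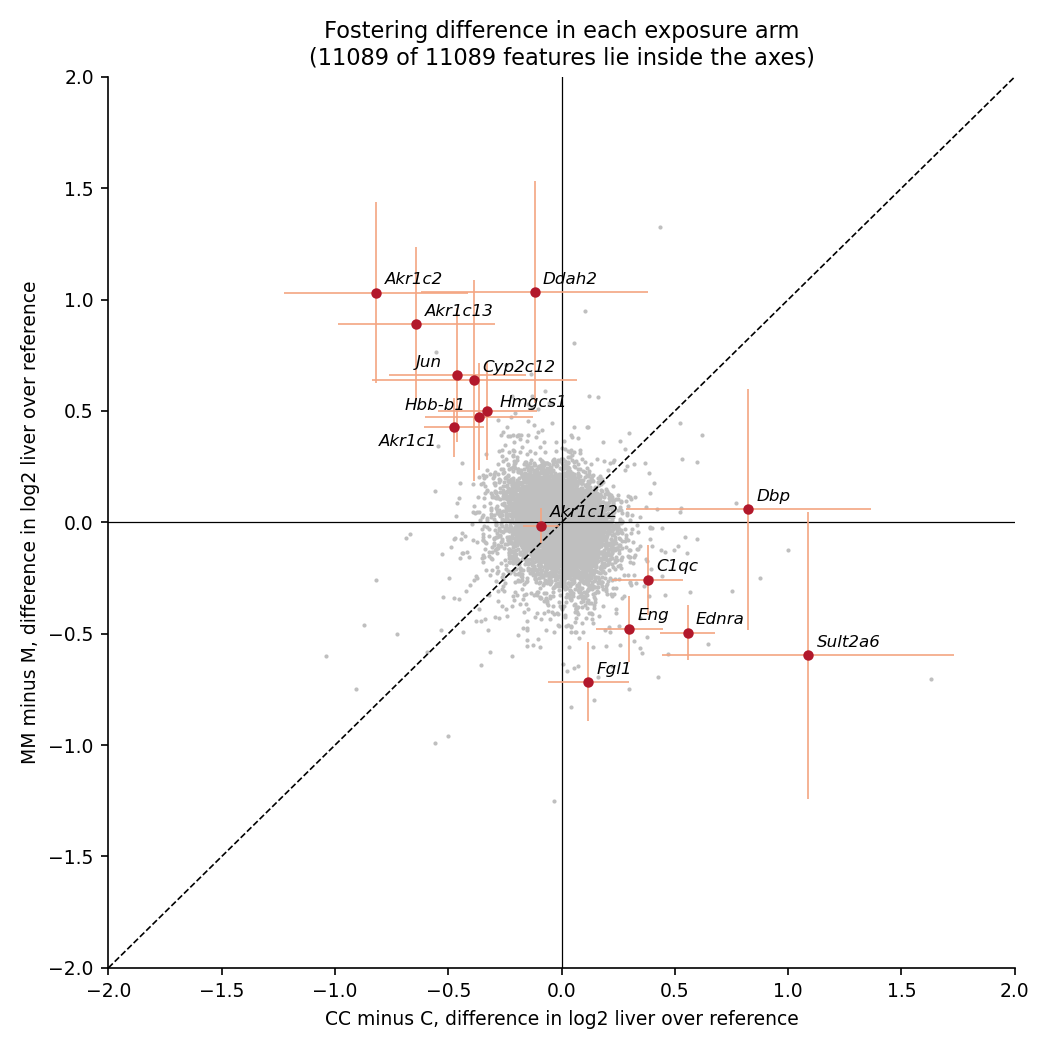
Fostering difference in the exposed arm (MM minus M, vertical axis) against the same difference in the control arm (CC minus C, horizontal axis), both in log2 liver over reference, for all 11089 features in grey and for 15 genes in red with bars of 1 standard error; the dashed line marks an interaction of 0. Akr1c2 lies at 1.03 in the exposed arm and -0.82 in the control arm, and Ednra at -0.50 and 0.56.

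The interaction from slide row 1 and that from slide row 2 were weakly related across features. Pearson's r was 0.096 and Spearman's rho was 0.080 over the features with values in both rows, and 52.5% had the same sign in both. These points share the arrays within each row, and genes are not independent replicates, so no p is given. In the liver channel the same comparison gave r = 0.105 with 54.2% of the same sign, and in the reference channel r = -0.110 with 44.8%. The estimates spread with an SD of 0.22 in row 1 and 0.28 in row 2. Of 45 genes chosen by rule, 42 had the same sign in both rows, and the exceptions were Dbp, Nr3c1 and Cyp7a1. Most of the 45 were chosen for a low p or a large estimate, which favours genes alike in both rows, and 15 because earlier results of these data named them.

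**Figure D2:**
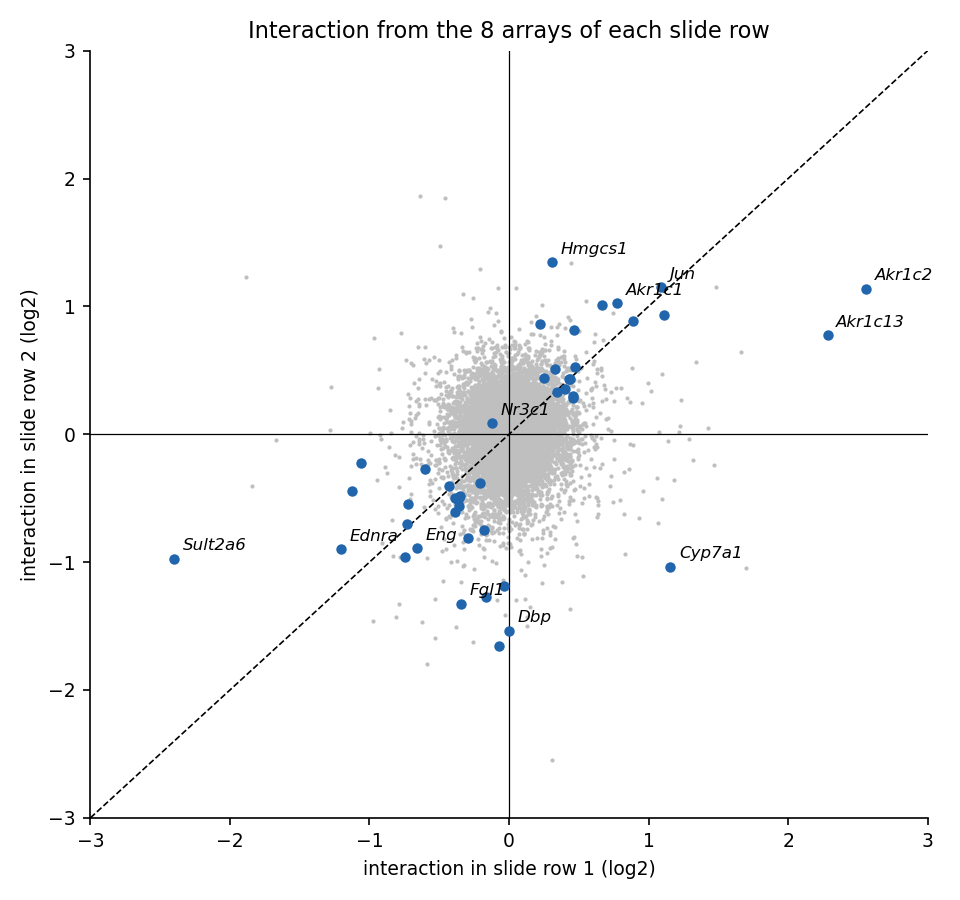
Interaction (log2) from the 8 arrays of slide row 2 against that from the 8 arrays of slide row 1, with all features in grey and the 45 genes named by rule in blue; the dashed line marks equal values. Akr1c2 and Akr1c13 lie at 2.56 and 2.29 in row 1 and at 1.14 and 0.78 in row 2, while Cyp7a1 lies at 1.16 in row 1 and -1.04 in row 2.

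Among genes above background in every group, the 8 with the lowest p in each direction had interactions between 0.34 and 0.90 in size. The positive ones were led by Akr1c1, a ketosteroid reductase, at 0.90 ± 0.19 (SE, n = 4 arrays a group). They included the kinase Map3k7, an upstream activator of inflammatory signalling, at 0.50 ± 0.12. Nlk, a kinase that modulates Wnt signalling, had 0.42 ± 0.12, and Naa15, a subunit of an N-terminal acetyltransferase, had 0.43 ± 0.11. Rpap1, which binds RNA polymerase II, had 0.43 ± 0.11, Grsf1, a mitochondrial RNA-binding protein, had 0.38 ± 0.11, and the endocytic receptor Lrp2 had 0.38 ± 0.11. The last was Arnt2, a dimer partner of basic helix-loop-helix factors, at 0.34 ± 0.10. All 8 had an adjusted p of 0.934 by limma.

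The 8 negative ones were led by Or8w1b, an odorant receptor gene, at -0.44 ± 0.10. Aen, a nuclease induced in apoptosis, had -0.72 ± 0.17, and endoglin (Eng), a co-receptor for TGF-beta on endothelium, had -0.77 ± 0.21. The secreted hepatocyte protein Fgl1 had -0.83 ± 0.25, and Resp18, a protein of endocrine secretory granules, had -0.78 ± 0.24. Zfp24, a zinc finger factor, had -0.44 ± 0.12, Apoc1, an apolipoprotein of very low density lipoprotein, had -0.42 ± 0.13, and Slc10a3, of the bile acid transporter family, had -0.41 ± 0.13. These 8 also had an adjusted p of 0.934 by limma. The liver channel alone gave the same sign for all 16 genes. It is part of the ratio by which they were chosen, so that agreement is no separate evidence.

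Of the 16, Aen and Map3k7 had the lowest p-values after Akr1c1 and Or8w1b. Map3k7 read 0.55, 0.53, 0.87 and 0.72 in MM livers, against 0.42, 0.25, 0.69 and 0.66 in M livers. It read 0.12, 0.39, 0.65 and 0.47 in CC livers, against 0.55, 0.50, 1.07 and 0.85 in C livers. Fostered and non-fostered arrays overlapped in both arms, and within each group the 2 arrays of row 1 were the lower ones. Aen read 0.53, 0.26, -0.65 and -0.30 in MM livers, against 0.61, 0.67, -0.24 and 0.12 in M livers. It read 0.56, 0.28, 0.05 and -0.17 in CC livers, against -0.10, -0.03, -0.51 and -0.18 in C livers. Here row 1 was the higher one in every group, and the interaction was alike in both rows, at -0.73 and -0.70.

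A second probe above background on some arrays existed for 4 of these 16 genes, and in each it gave a smaller value or another sign. The second probe of Lrp2, above background on 13 arrays, gave -0.14 against 0.38 for the brightest probe. That of Aen, on 15 arrays, gave -0.16 against -0.72. That of Naa15, on 3 arrays, gave 0.089 against 0.43, and the 2 other probes of Nlk gave 0.14 and 0.084 against 0.42.

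The largest positive estimates belonged to the Akr1c genes, which encode NADPH-dependent aldo-keto reductases that reduce steroids, prostaglandins and xenobiotic carbonyls and lie in a cluster on chromosome 17. Of 9 listed members measured, 6 had a positive interaction and 3 a negative one, with a median of 0.15 beside 0.0082 over all features, of which 52.1% were positive. The counts of signs in the lists below are to be read beside that share. Members of a list were measured on the same arrays, so they are not independent replicates. Akr1c1, Akr1c2 and Akr1c13 were positive at an unadjusted p under 0.05, and Akr1c3 was negative. Over all features 4.19% reached that level in either direction. Without M replicate 5 the median of the list was 0.0084. The sequences of close relatives are alike enough that a probe may also bind a neighbour, so the values of single members are uncertain.

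Akr1c1 read 6.51, 6.84, 6.98 and 6.58 in MM livers, against 6.32, 6.16, 6.36 and 6.38 in M livers. It read 6.82, 6.68, 6.90 and 6.60 in CC livers, against 7.11, 7.07, 7.65 and 7.07 in C livers. All 4 MM arrays were above all 4 M arrays, and all 4 CC arrays were below all 4 C arrays. MM minus M was 0.43 ± 0.13 and CC minus C was -0.47 ± 0.13. The interaction was 0.78 in row 1 and 1.03 in row 2, 1.08 for liver signal alone and 0.058 for reference signal alone, and 0.76 to 0.99 when any 1 array was left out.

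Akr1c2 read 5.91, 6.86, 6.32 and 5.82 in MM livers, against 3.66, 5.50, 5.38 and 6.25 in M livers. It read 6.78, 5.77, 6.38 and 5.63 in CC livers, against 7.15, 6.92, 6.89 and 6.88 in C livers. The C arrays lay within a narrow range above every CC array, while 1 M array was far below the other 3. The interaction was 1.85 ± 0.58 with a 95% interval of 0.62 to 3.08 and an adjusted p of 0.934 by limma, and it was 1.33 without the lowest M array (M replicate 5). In the reference channel Akr1c2 had 0.54, of the same sign as the 2.44 of the liver channel.

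Akr1c13 read 2.34, 3.14, 2.65 and 1.89 in MM livers, against 0.97, 0.93, 1.71 and 2.86 in M livers. It read 2.66, 2.17, 2.64 and 2.05 in CC livers, against 3.14, 2.68, 3.24 and 3.02 in C livers. CC lay below C on every array, and MM and M overlapped through M replicate 8. Its interaction was 1.53 ± 0.49, larger in row 1 (2.29) than in row 2 (0.78). Akr1c12 read 4.79, 4.78, 5.19 and 4.99 in MM livers, 4.65, 5.01, 5.10 and 5.04 in M livers, 4.87, 4.93, 4.97 and 4.90 in CC livers, and 4.96, 5.03, 5.04 and 5.00 in C livers. All 4 groups of Akr1c12 overlapped, and its interaction was 0.07 ± 0.11. Akr1c3, a ketosteroid reductase of the same cluster, had -0.45 ± 0.21 and Akr1c14, a 3-alpha-hydroxysteroid dehydrogenase, had -0.23 ± 0.23. Without C replicate 11, Akr1c3 was -0.28 and Akr1c14 was -0.10, and the second probe of Akr1c3 gave -0.24.

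The promoter windows of Akr1c2, Akr1c13 and Akr1c12 are shown because the estimates of these 3 neighbours on chromosome 17 differed, a difference that was not tested. The sequences are from RefSeq on GRCr8, each with 250 bases before and 50 after the gene's start, read 5′ to 3′ on the gene's strand. Capitals mark the longest run, 66 bases, that is identical between Akr1c13 and Akr1c12.
Akr1c2, chr17:70717831-70718130, minus strand: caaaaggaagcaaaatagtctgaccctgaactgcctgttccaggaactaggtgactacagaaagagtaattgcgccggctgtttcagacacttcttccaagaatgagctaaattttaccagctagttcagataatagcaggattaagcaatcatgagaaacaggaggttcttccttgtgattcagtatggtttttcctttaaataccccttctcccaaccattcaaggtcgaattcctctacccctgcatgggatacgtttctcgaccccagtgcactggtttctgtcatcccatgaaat
Akr1c13, chr17:70894386-70894685, plus strand: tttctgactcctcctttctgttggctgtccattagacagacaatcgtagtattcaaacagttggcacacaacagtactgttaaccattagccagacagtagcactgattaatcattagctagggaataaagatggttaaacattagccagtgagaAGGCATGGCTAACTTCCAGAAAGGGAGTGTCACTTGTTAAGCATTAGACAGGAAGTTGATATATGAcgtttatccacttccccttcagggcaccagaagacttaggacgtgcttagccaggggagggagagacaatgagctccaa
Akr1c12, chr17:70971363-70971662, minus strand: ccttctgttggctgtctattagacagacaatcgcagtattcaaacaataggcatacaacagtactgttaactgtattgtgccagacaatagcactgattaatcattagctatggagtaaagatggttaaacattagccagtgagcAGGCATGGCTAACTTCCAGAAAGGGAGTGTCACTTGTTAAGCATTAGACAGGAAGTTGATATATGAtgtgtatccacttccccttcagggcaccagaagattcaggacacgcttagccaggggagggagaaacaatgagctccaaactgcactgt
In a global alignment, 266 of 300 bases were identical between Akr1c13 and Akr1c12 (88.7%), and 124 between Akr1c2 and Akr1c13 (41.3%). Any part of these sequences in the interactions was not tested. The letters TGACNNNGC, the core of the antioxidant response element, and AGAACA, a glucocorticoid response element half-site, were searched on both strands and were in none of the 3 windows; they are in 12.1% and 20.7% of 33469 rat promoter windows.

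**Figure D3:**
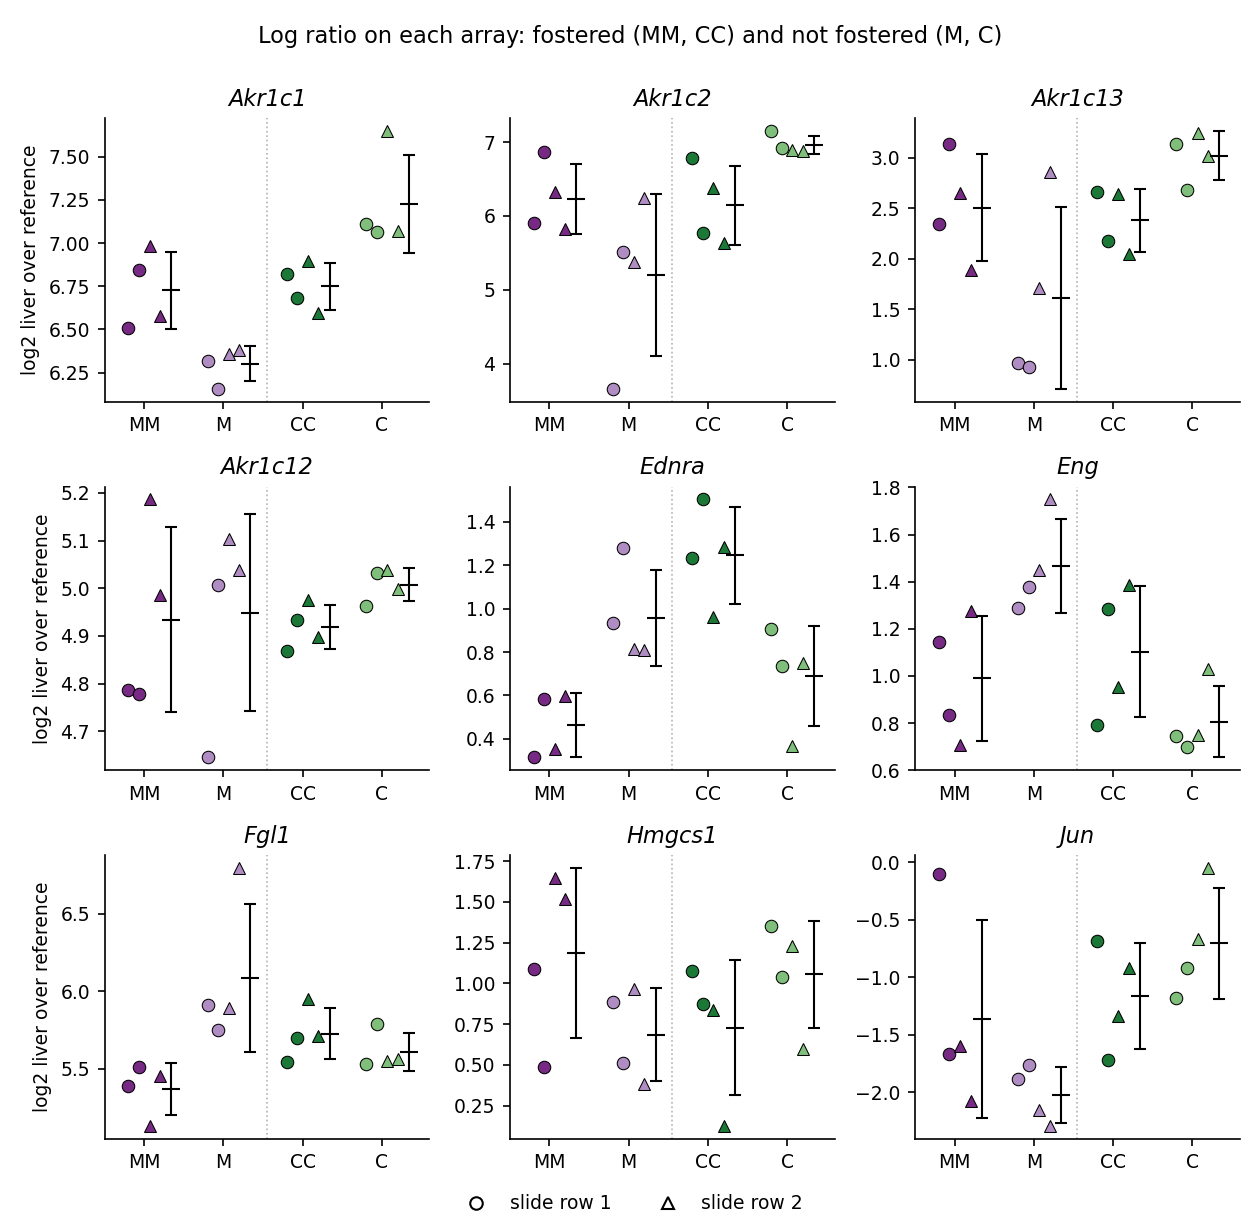
Log2 liver over reference of 9 genes on each array, by group (MM, M, CC, C from left to right; circles are slide row 1, triangles slide row 2; the bar beside each group is the mean ± SD, n = 4 arrays). Vertical scales differ between panels. In Akr1c1 and Ednra the MM and M arrays separate in 1 direction and the CC and C arrays in the other, while the 4 groups of Akr1c12 all lie between 4.65 and 5.19.

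Ednra, the endothelin type A receptor found on smooth muscle and stellate cells, had the lowest p-value of all features. It read 0.32, 0.59, 0.35 and 0.60 in MM livers, against 0.93, 1.28, 0.81 and 0.81 in M livers. It read 1.24, 1.50, 0.96 and 1.28 in CC livers, against 0.90, 0.74, 0.37 and 0.75 in C livers. All MM arrays were below all M arrays, and all CC arrays were above all C arrays. MM minus M was -0.50 ± 0.12 and CC minus C was 0.56 ± 0.12. The interaction was -1.05 ± 0.17, with an adjusted p of 0.292 by limma, between -0.95 and -1.13 when any 1 array was left out, -1.20 in row 1 and -0.90 in row 2.

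The signal behind that value was low. Ednra was well above background on 2 of 4 MM arrays and on all arrays of the other groups, and its other probe was above background on no array and gave -0.15. The liver channel alone had -0.61, and the reference channel 0.19 in the opposite direction. Of 7 genes of endothelin signalling measured, 6 were negative with a median of -0.053, which was -0.017 without MM replicate 3 and -0.12 without C replicate 12. In the liver channel 4 of the 7 were positive, with a median of 0.0097. Of the 7, Ednra alone had an unadjusted p under 0.05, a level that 4.19% of all features reached. The endothelin type B receptor Ednrb, above background on 2 MM arrays, 1 M array, 3 CC arrays and 2 C arrays, had -0.04 ± 0.11 near the detection limit, and the endothelin-converting enzyme Ece1 had -0.04 ± 0.14. Of 12 smooth muscle and pericyte markers, 9 were measured; 6 were positive, with a median of 0.046. The summed signal of those markers was 1073 to 1449 in MM livers, 1284 to 1587 in M livers, 1216 to 1541 in CC livers and 1180 to 1555 in C livers, and its part in the result was not tested.

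Markers of sinusoidal endothelium, the fenestrated lining of liver capillaries, were negative in 8 of 11 measured members of 20 listed, with a median of -0.11, in row 1 (-0.092) and row 2 (-0.12) alike. None was called. Eng read 1.14, 0.83, 0.71 and 1.27 in MM livers, against 1.29, 1.38, 1.45 and 1.75 in M livers. It read 0.79, 1.28, 0.95 and 1.38 in CC livers, against 0.74, 0.70, 0.75 and 1.03 in C livers. All MM arrays were below all M arrays, and CC and C overlapped. Eng had -0.48 for MM minus M and 0.30 for CC minus C, while the medians of the list were 0.031 and 0.13. Gpr182, an atypical chemokine receptor of sinusoidal endothelium, had -0.38 ± 0.12. It was chosen after its values were seen. It was well above background on 2 of 4 MM arrays, 4 of 4 M arrays, 3 of 4 CC arrays and 1 of 4 C arrays, so it was tested only through the groups where it was high, and its size is uncertain. The hyaluronan receptor Lyve1 had -0.49 and the VEGF receptor Kdr had -0.32, while Pecam1, which joins endothelial cells, had -0.03 and Oit3 had 0.01. The list's summed signal was 2980 to 5039 in MM livers, 3730 to 4497 in M livers, 3691 to 5099 in CC livers and 2893 to 5394 in C livers, so the ranges of all 4 groups overlapped. Without M replicate 6 the median was -0.029.

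Kupffer cells are the resident macrophages of liver, and 16 of 21 of their measured markers were negative, with a median of -0.067 that was -0.17 in row 1 and 0.0036 in row 2. Slc11a1, a phagosomal metal transporter, had -0.44 ± 0.15, and it was well above background on 2 of 4 C arrays. C1qc, a chain of complement C1q, had -0.64 ± 0.22, and the other chains C1qa and C1qb had -0.12 and -0.07. C1qc read 3.41, 3.07, 3.05 and 3.40 in MM livers, against 3.52, 3.61, 3.30 and 3.52 in M livers. It read 3.79, 3.80, 3.31 and 3.34 in CC livers, against 3.11, 3.68, 2.57 and 3.36 in C livers. Fostered and non-fostered arrays overlapped in both arms. The list's median was -0.020 without C replicate 9 and -0.15 without C replicate 10.

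Genes of cholesterol biosynthesis leaned to positive interactions: 20 of 27 measured members were positive and 7 negative, with a median of 0.22 beside 0.0082 over all features. None was called by limma. The median over the list was 0.11 for MM minus M and -0.098 for CC minus C, 0.19 in row 1 and 0.27 in row 2, and 0.22 in the liver channel beside 0.012 in the reference channel. It ranged from 0.13 without M replicate 8 to 0.31 without CC replicate 3. At an unadjusted p under 0.05, 4 members were positive (Mvd, Acat2, Hmgcs1 and Ebp) and 1 was negative. Over all features 4.19% reached that level in either direction.

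Hmgcs1, the synthase that makes HMG-CoA for the pathway, had the largest estimate at 0.83 ± 0.31 (adjusted p of 0.934 by limma). It read 1.09, 0.49, 1.65 and 1.52 in MM livers, against 0.89, 0.51, 0.96 and 0.38 in M livers. It read 1.07, 0.88, 0.84 and 0.13 in CC livers, against 1.35, 1.04, 1.23 and 0.60 in C livers. The groups overlapped in both arms, and the interaction was 0.31 in row 1 and 1.34 in row 2. Mvd, mevalonate diphosphate decarboxylase, read -1.57, -1.52, -1.46 and -1.24 in MM livers, against -1.35, -1.78, -1.84 and -1.86 in M livers. It read -1.68, -1.63, -1.71 and -2.11 in CC livers, against -1.23, -1.68, -1.50 and -1.60 in C livers. M replicate 5 lay above 3 of the MM arrays, and the interaction was 0.54 ± 0.19.

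The other steps of the pathway are given after their values were seen. Idi1, the isomerase of isopentenyl diphosphate, had 0.51 ± 0.25, and Msmo1, a sterol methyl oxidase, had 0.49 ± 0.24. Sqle, squalene epoxidase, had 0.44 ± 0.22, Acat2, which joins acetyl units at the entry, had 0.43 ± 0.15, and Ebp, a sterol isomerase, had 0.25 ± 0.12. Acat2 was the only one of these whose MM and M arrays did not overlap, at -1.13, -1.25, -0.97 and -0.97 in MM livers against -1.29, -1.65, -1.35 and -1.38 in M livers. Its CC and C arrays did overlap.

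**Figure D4:**
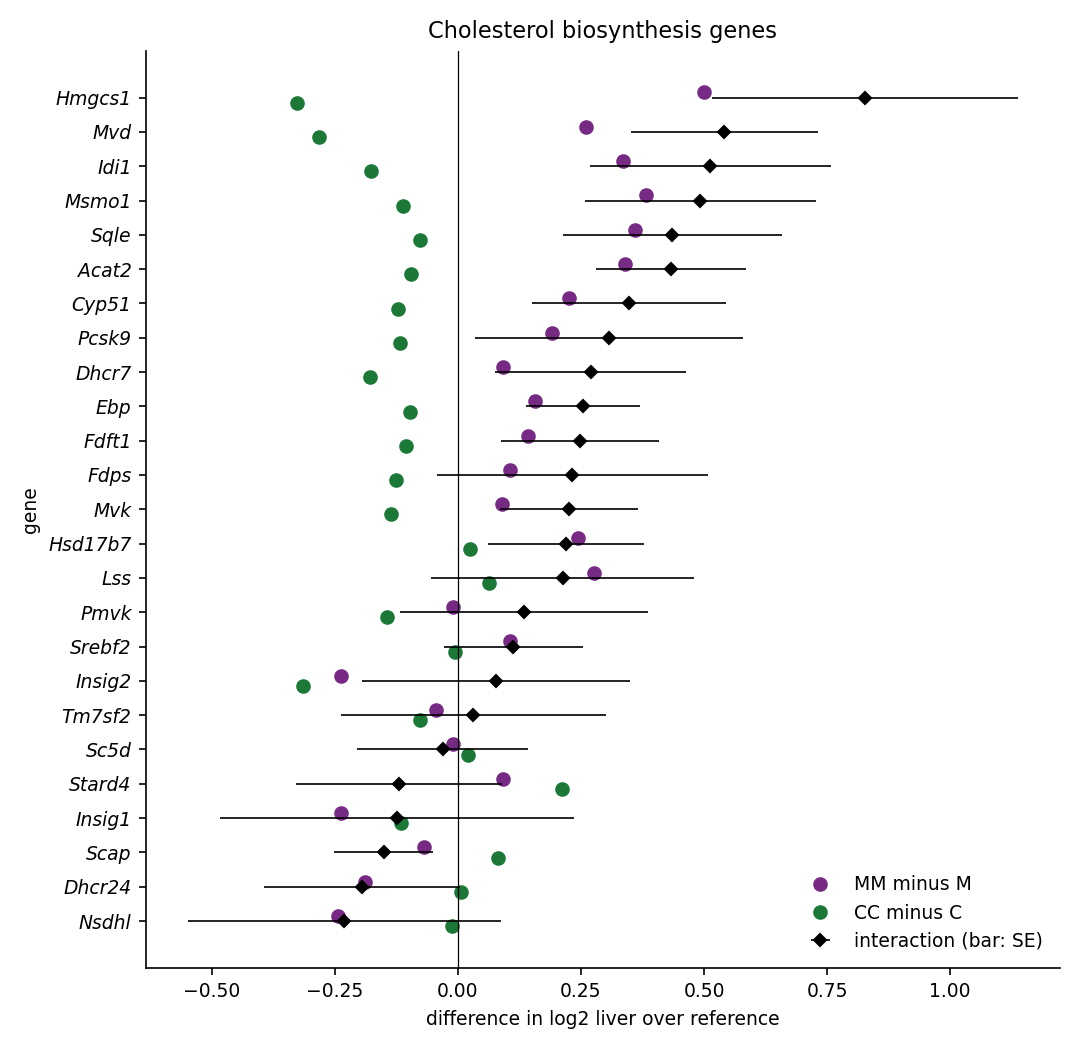
Interaction with its standard error (black diamonds), MM minus M (purple) and CC minus C (green) for 25 of the 27 measured genes of cholesterol biosynthesis, in log2 liver over reference, ordered by interaction. Of those plotted, Hmgcs1 is at the top with 0.83 and Nsdhl at the bottom with -0.23, and 19 of the 25 diamonds lie above 0; the lowest estimate of the list is not among them.

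The promoter of Hmgcs1 is shown as the start of the gene with the largest estimate in that pathway (RefSeq, GRCr8, the same window). Capitals mark 2 matches to the reverse complement of CCAAT, which begin at positions -188 and -133 from the start.
Hmgcs1, chr2:53382054-53382353, plus strand: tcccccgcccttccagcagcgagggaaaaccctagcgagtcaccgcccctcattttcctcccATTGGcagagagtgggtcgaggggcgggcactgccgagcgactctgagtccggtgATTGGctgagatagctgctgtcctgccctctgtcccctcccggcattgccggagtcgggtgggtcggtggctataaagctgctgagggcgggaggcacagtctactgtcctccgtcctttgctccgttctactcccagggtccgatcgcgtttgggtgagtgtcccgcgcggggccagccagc
CCAAT, searched on both strands, was in 15 of 19 windows found for the cholesterol list (78.9%) and in 37.5% of all 33469 windows. TCACNCCAC, a core of the sterol response element, was in 0 of the 19 and in 1.12% of all. Only exact matches were sought, and at so low a share 0 of 19 says little.

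Fgl1 led the acute phase list. It read 5.39, 5.51, 5.13 and 5.46 in MM livers, against 5.91, 5.75, 5.89 and 6.80 in M livers. It read 5.54, 5.70, 5.95 and 5.71 in CC livers, against 5.53, 5.79, 5.55 and 5.56 in C livers. All MM arrays were below all M arrays, M replicate 8 was far above the other M arrays, and CC and C overlapped. The interaction of Fgl1 was -0.34 in row 1 and -1.32 in row 2, and it was -0.59 without M replicate 8. Crp, C-reactive protein, had -0.48 ± 0.19 and Apcs, serum amyloid P, had -0.40 ± 0.18, which was -0.25 without C replicate 10. The list as a whole had 10 positive and 14 negative members and a median of -0.051, positive in row 1 (0.15) and negative in row 2 (-0.19), and 0.022 without CC replicate 3. In the liver channel 4 of the 24 were positive with a median of -0.24, and the median was -0.092 in the reference channel.

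The arrays of Apoc1 separated in the control arm and overlapped in the exposed arm, a contrast that limma did not call. It read 8.83, 8.65, 8.56 and 8.37 in MM livers, against 8.72, 8.72, 8.53 and 8.55 in M livers. It read 9.19, 9.02, 8.98 and 8.89 in CC livers, against 8.84, 8.62, 8.34 and 8.71 in C livers. MM and M arrays overlapped, and every CC array was above every C array. CC minus C was 0.40 ± 0.09 and MM minus M was -0.03 ± 0.09, and the reference channel carried 0.16 of the same contrast, opposite to -0.26 in the liver channel. Of 19 apolipoprotein and lipoprotein genes, 9 were positive and 10 negative, with a median of -0.038 that was 0.064 without MM replicate 2. In the liver channel 3 of the 19 were positive, with a median of -0.19.

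Genes of the interferon response and antigen presentation were negative in 28 of 35 measured members, with a median of -0.11, -0.17 in row 1 and -0.072 in row 2. Over all features 52.1% were positive. Bst2, an interferon-induced membrane protein, had -0.42 ± 0.15. It read 2.90, 3.12, 2.70 and 2.77 in MM livers, against 3.55, 3.45, 2.71 and 2.80 in M livers. It read 2.12, 2.15, 2.62 and 2.64 in CC livers, against 2.21, 2.19, 2.31 and 2.17 in C livers. The fostered and non-fostered arrays overlapped in both arms, and in the exposed arm they parted in row 1 alone. Oas1a, a 2-5 oligoadenylate synthetase, had -0.72 ± 0.50, which was -0.43 without C replicate 11, and its relative Oas1k had -1.05 ± 0.40. Without C replicate 9 the list's median was -0.056, and without C replicate 10 it was -0.19.

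Jun, a subunit of the AP-1 factor and an immediate early gene, had 1.12 ± 0.43. It read -0.10, -1.66, -1.60 and -2.07 in MM livers, against -1.89, -1.76, -2.15 and -2.29 in M livers. It read -0.68, -1.72, -1.33 and -0.92 in CC livers, against -1.18, -0.92, -0.67 and -0.05 in C livers. A single MM array stood well above the rest of its group, and without it (MM replicate 1) the interaction was 0.75. Of 15 immediate early genes measured, 9 were positive and 6 negative, with Egr1 at 0.04 and Atf3 at 0.09.

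Erythroid genes, which mark red cell precursors and blood left in the tissue, were positive in 6 of 7 measured members of 14 listed, with a median of 0.35, in row 1 (0.28) and row 2 (0.35) alike. The beta-globin gene Hbb-b1 read 5.48, 6.64, 5.70 and 5.77 in MM livers, against 5.89, 5.09, 5.24 and 5.46 in M livers. It read 6.26, 5.93, 6.14 and 5.43 in CC livers, against 6.26, 6.13, 6.62 and 6.20 in C livers. MM replicate 2 was the highest array and the groups overlapped in both arms. Its interaction was 0.84 ± 0.34, and it was 0.59 without MM replicate 2. Hbb had 0.59 ± 0.30 and the globin chaperone Ahsp had 0.52 ± 0.25, which were 0.35 and 0.29 without MM replicate 2. The anion exchanger Slc4a1 was negative at -0.39 ± 0.16. The summed signal of the list was 40732 to 178782 in MM livers, 49446 to 81740 in M livers, 60434 to 102946 in CC livers and 91361 to 116784 in C livers. How far blood content moved with other genes was not tested.

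Of the 17 features of at least 2-fold, 11 carried a symbol and were above background in every group, and they were named after their values were seen. Besides Akr1c2, Akr1c13, Jun and Oas1k they were Sult2a6, Cyp2c12, Zfp354a, Slc35c2, Slc13a5, Retsat and Ddah2. The estimate of largest size over all features, -2.33, was not among these 11. Sult2a6, a hydroxysteroid sulfotransferase, had -1.69 ± 0.91. It read 3.75, 5.03, 3.33 and 4.60 in MM livers, against 5.93, 6.26, 2.78 and 4.14 in M livers. It read 5.85, 4.87, 5.70 and 5.43 in CC livers, against 5.91, 3.40, 2.89 and 5.28 in C livers. The M and C arrays each covered more than 2 log2 units, wider than the CC arrays, and the 95% interval of -3.64 to 0.26 included 0. Cyp2c12, the female-specific steroid hydroxylase of rat liver, had 1.02 ± 0.64, and without its lowest CC array (CC replicate 2) it had 0.55. Its probe was well above background on 4 of 4 arrays of each group of these males. Whether it also binds a relative was not tested.

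Zfp354a, a zinc finger repressor, had -1.06 ± 0.45, with -0.53 in row 1 and -1.59 in row 2. The sugar transporter family member Slc35c2 had -1.12 ± 0.60, with -1.84 in row 1 and -0.41 in row 2. Slc13a5, the citrate transporter of hepatocytes, had -1.12 ± 0.69 with 0.31 in row 1 and -2.55 in row 2, and it was -0.59 without M replicate 8. Retsat, retinol saturase, had -1.12 ± 0.79 and was -0.65 without C replicate 11.

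Ddah2, a dimethylarginine hydrolase, had 1.15 ± 0.71. It read -2.94, 0.39, -1.86 and -2.53 in MM livers, against -2.95, -2.93, -2.36 and -2.83 in M livers. It read -2.90, -2.87, -2.40 and -2.74 in CC livers, against -3.03, -2.74, -1.96 and -2.70 in C livers. MM replicate 2 stood about 2 log2 units above every other array. Its interaction was 0.09 for liver signal alone and -1.41 for reference signal alone, and 0.36 without MM replicate 2.

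The glucocorticoid receptor Nr3c1 had -0.01 ± 0.18, with a 95% interval of -0.39 to 0.36. Its probe was well above background on 1 MM array, 2 M arrays, 3 CC arrays and 2 C arrays, so this value lies close to the detection limit. Klf9, a factor induced by glucocorticoid and thyroid hormone, read 1.46, 1.28, 1.09 and 1.13 in MM livers, against 0.83, 1.36, 1.24 and 1.63 in M livers. It read 1.22, 1.23, 0.94 and 1.41 in CC livers, against 0.56, 0.98, 0.63 and 0.85 in C livers. CC and C overlapped in 1 pair of arrays, and the interaction was -0.47 ± 0.22. Of 21 glucocorticoid response genes, 18 were negative with a median of -0.096, although the median was 0.038 in row 1 and -0.22 in row 2, and it was -0.040 without M replicate 8.

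The clock output factor Dbp had -0.77 ± 0.76 and its relative Tef had -0.61 ± 0.31. Dbp read 1.49, 1.59, 1.56 and -0.065 in MM livers, against 0.28, 0.64, 1.13 and 2.28 in M livers. It read 0.45, 0.44, -0.25 and 1.76 in CC livers, against 0.02, -1.28, -0.58 and 0.94 in C livers. Each group covered more than 1.5 log2 units, and without MM replicate 4 the interaction of Dbp was -0.24. That of Tef was -0.03 in row 1 and -1.19 in row 2, and it was -0.40 without CC replicate 4.

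No metabolic enzyme was called by limma. Cyp2b2, a cytochrome P450 induced through CAR, had -0.87 ± 0.43, with -0.07 in row 1 and -1.66 in row 2. Its second probe, above background on 16 arrays, gave -0.26, so its size is uncertain. Of 17 CAR and PXR targets measured, 13 were negative with a median of -0.16, which was 0.015 in row 1 and -0.36 in row 2 and -0.068 without C replicate 11. Cyp7a1, the rate-limiting enzyme of bile acid synthesis, had 0.06 ± 0.78 with opposite signs in the rows. Srd5a1, the steroid 5-alpha-reductase, had -0.85 ± 0.40, and without C replicate 11 it had -0.53. Mt2A, a metallothionein, had -0.64 ± 0.67, and without C replicate 9 it had -0.12. Elovl6, a fatty acid elongase, had 0.89 ± 0.59, and without C replicate 9 it had 0.26. Agpat2, which makes phosphatidic acid, had -0.55 ± 0.19.

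Ribosomal protein genes were positive in 55 of 72 measured members, with a median of 0.10, but the rows disagreed: the median was -0.10 in row 1 and 0.32 in row 2. It was 0.010 without C replicate 11. Their median in the liver channel was 0.024. Oxidative phosphorylation genes were positive in 42 of 65, with a median of 0.047 that was 0.084 without CC replicate 2. Rps7, with the lowest p of the ribosomal list, had -0.50 ± 0.17, opposite to most of that list, and Atp5f1b, a subunit of ATP synthase, had -0.29 ± 0.12. Uqcrb, a subunit of respiratory complex III, had 0.37 ± 0.16, and its second probe gave 0.13. Over the 41 lists compared, 18 had a median of the same sign in both rows.

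**Figure D5:**
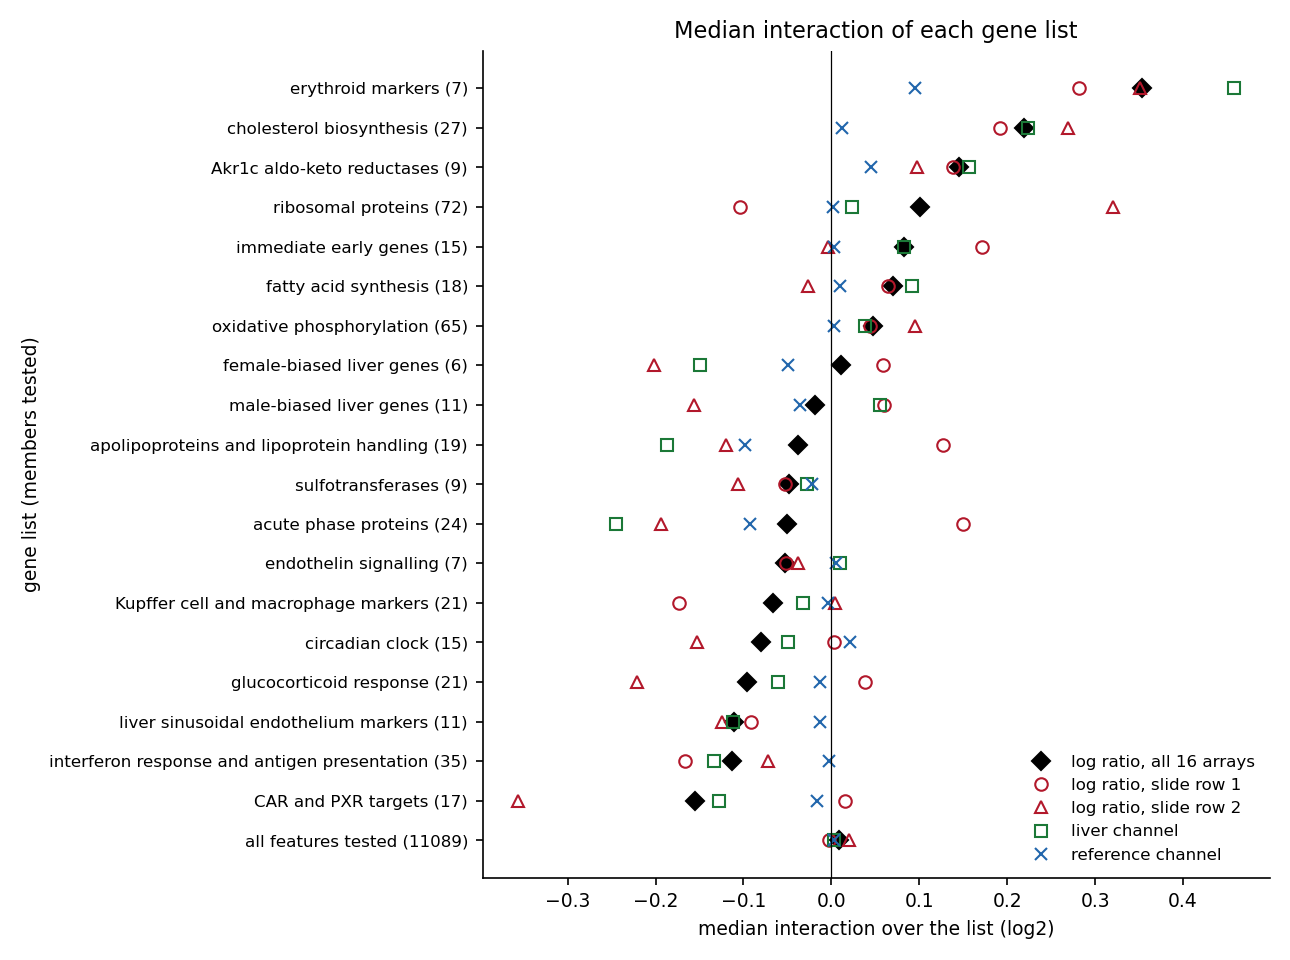
Median interaction (log2) of 19 gene lists, with all features tested at the bottom, from all 16 arrays (black diamonds), from slide row 1 and row 2 (red circles and triangles), from the liver channel (green squares) and from the reference channel (blue crosses). Erythroid markers lie at 0.35 and cholesterol biosynthesis at 0.22 with both rows above 0, while ribosomal proteins lie at -0.10 in row 1 and 0.32 in row 2.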

How the data were processed

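Scanner files of 16 two-colour Agilent arrays (design 028279) were used. Spot intensities and the log10 ratio of red over green were made by the authors' scanner software, Agilent Feature Extraction 11.0.1.1, per the file headers, and the deposited value table holds a log2 ratio. Against loess ratios computed from the scanner intensities without background subtraction, that table had correlations of 0.989 to 0.995 and slopes near 1, so its scale and direction are settled; its column medians were -0.038 to -0.027 and its centring is unknown.

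Median spot and background intensities were corrected with normexp (offset 50) and loess within arrays in limma 3.58.1 (R 4.3.3). Control spots had weight 0 and flagged outlier spots were left out. The brightest of the probes of a name was kept, and 18005 of 30367 probes were named through RefSeq. A feature was tested if liver was well above background on 3 of 4 arrays of a group. The fit had 4 group means and slide row within slide (10 residual degrees of freedom), with Benjamini-Hochberg adjustment over 11089 features. The scripts were tested on simulated data. The number of arrays limits the precision.

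The contrast, the gene lists and the rules were chosen with earlier results of these data known. Genes named by rule were the 8 with the lowest p in each direction, those without overlap in both pairs, the member with the lowest p and that with the largest estimate in each list described, and 15 genes that earlier results named; 22 more were chosen after their values were seen. The list of cholesterol genes holds 2 members whose own values are not reported here.

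CC and MM share sample numbers 1 to 4. Deviations of same-numbered arrays from their group means correlated at 0.554, 0.157, 0.582 and 0.193, but the numbers follow slide row, and after taking out row the values were 0.038 for numbers 1 and 2 and 0.254 for 3 and 4. M and C carry other numbers, so the replicate block covered CC and MM alone.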

Additional observations from a re-analysis of the deposited data

Results flagged for a closer look

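In 268 groups of 4 arrays, 1 for each named gene and group, 16 held an array that lay far from the other 3 by Dixon's test at the 95% level, beside about 5% by chance. The values are log2 liver over reference.

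In MM livers, replicate 4 was low for Dbp (-0.065, next 1.49) and replicate 3 was low for Msmo1 (-0.40, next -0.05).

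In M livers, replicate 8 was high for Fgl1 (6.80, next 5.91) and Mt2A (2.69, next 1.51). M replicate 5 was low for Zfp24 (0.16, next 0.49) and high for Mvd (-1.35, next -1.78).

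In CC livers, replicate 3 was high for Ahsp (0.27, next -0.06) and Elovl6 (-0.86, next -1.17), and replicate 2 was low for Cyp2c12 (2.30, next 4.42).

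In C livers, replicate 11 was high for Akr1c1 (7.65, next 7.11) and Ahsp (0.38, next 0.09), and low for Tef (-0.15, next 0.34). C replicate 10 was high for Fgl1 (5.79, next 5.56) and low for Apcs (6.76, next 7.35). C replicate 9 was high for Akr1c2 (7.15, next 6.92), and C replicate 12 for Eng (1.03, next 0.75).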

How the results depend on the processing

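Under all alternatives run, limma called 0 features for the interaction. The smallest adjusted p was 0.292 with the fit above and 0.051 with slide row and column as blocks, 0.889 with no block, 0.556 without background subtraction, 0.361 with the scanner's log ratio, 0.620 with the deposited table, 0.171 with scaling between arrays, 0.280 with array weights, 0.247 with a trended robust prior, 0.381 with no filter, 0.925 with features above background in every group and 0.938 with probes averaged. With 1 row term for both slides, added after seeing the data, it was 0.186. With the replicate block it was 0.109, with 619 features at an unadjusted p under 0.05 instead of 465, and it changed no call. Leaving out 1 array gave 0.148 (without MM replicate 4) to 0.999 (without CC replicate 4).

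Counts at an unadjusted p under 0.05 moved by more than 1.5 times with no block (184 for the interaction, 107 for CC minus C, 195 for MM minus M, 168 in the liver channel), with no filter (1169), with the 75th percentile scaling of the liver channel (254 instead of 462), and without C replicate 11 (300), MM replicate 3 (298) or MM replicate 4 (805). The cause was not tested.

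Directions turned in 7 named genes. Cyp4a2, a fatty acid hydroxylase with -0.46, was 0.29 with the scanner's log ratio. Slc13a5 was 0.31, Dbp 0.0026 and Ednrb 0.060 in row 1 alone, and Nr3c1 was 0.089 and Cyp7a1 -1.04 in row 2 alone. Ednrb was 0.15 with the scanner's log ratio, and Ednrb and Ece1 were 0.0058 and 0.0067 with array weights. In the liver channel Nr3c1 was 0.026, Ednrb 0.016 and Ece1 0.013. Leaving out 1 array gave -0.10 to 0.036 for Ednrb, -0.13 to 0.031 for Ece1, -0.12 to 0.065 for Nr3c1 and -0.56 to 0.53 for Cyp7a1.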

Other observations

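Gene lists not described above held no called member. Glutathione S-transferases, which conjugate electrophiles, were negative in 15 of 20 measured members with a median of -0.13, which was -0.013 in row 1 and -0.17 in row 2. Genes of PPAR-alpha and fatty acid oxidation were negative in 19 of 26 with a median of -0.11, -0.050 in row 1 and -0.17 in row 2. Genes of thyroid hormone handling were negative in 10 of 13 with a median of -0.11, 0.067 in row 1 and -0.18 in row 2. Cell cycle genes were positive in 12 of 17 with a median of 0.12, -0.043 in row 1 and 0.22 in row 2. Genes of the growth hormone and IGF axis were positive in 9 of 14 with a median of 0.097, 0.12 in row 1 and 0.21 in row 2.

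The arrays did not weigh alike. Leaving out C replicate 11 moved 10 of the 67 named genes more than leaving out any other array did, and leaving out MM replicate 2, M replicate 8 or CC replicate 1 moved 6 each most. Over all features, the interaction moved with an SD of 0.072 without MM replicate 3, which also had the lowest array weight (0.422), and of 0.049 without M replicate 6.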
